A study of Homo sapiens with 4 samples.

Results

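BrdU peaks in the later introns of long protein-coding genes were described, that is, peaks whose midpoint lay in intron 2 or a later intron of a gene longer than 100 kb. A peak was a member when it touched no exon of a canonical coding transcript, lay on an autosome and had its midpoint in such an intron of the Ensembl canonical transcript of GENCODE version 44 on hg38. Where several genes qualified, the longest was used. Of the 33295 peaks in the list, 6939 were members (20.8%), and after overlapping or touching peaks were merged they made 5348 separate sites. The peaks come from BJ-hTERT cells, an immortalized line of normal human foreskin fibroblasts. Cells were arrested in G0/G1 by serum starvation, released into serum, pulsed with BrdU, a thymidine analogue, and collected 16, 19, 22, 24 and 28 h after release. Peaks of all 5 timepoints stand in a single list of positions, and how the 2 repeats entered it is not given. There was no treatment, knockdown or other genotype, so no condition could be compared. No spread between repeats could be given. The list carries no score or read count, and the depth behind each peak is unknown. The 4 samples of RNAPII and PCNA ChIP-Seq at 14 and 16 h were not analysed here.

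During S-phase, replication forks copy the same template that RNAPII transcribes, and the longest genes take hours to transcribe from end to end. Most of the length of such a gene is intron, and the first intron, close to the TSS, often carries regulatory elements that later introns carry less. A BrdU peak marks a place where labelled DNA was recovered in excess of Input DNA, and the study used such peaks to mark hotspots where forks stall or pause. The gene strand is the one whose sequence matches the RNA, so that a site with more T than A on it has its T on the non-template strand.

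Some member sequences show what these sites look like. All are written 5′ to 3′ on the gene strand of hg38 and are at most 300 bp wide. The first is the site nearest to the median of all sites in both AT content and T minus A. It lies in intron 7 of SUGCT, a mitochondrial coenzyme A transferase gene (chr7:40271615-40271843, plus strand), and holds 35.8% T and 26.2% A. The second, in intron 10 of the glycosyltransferase gene GALNT17 (chr7:71711567-71711765, plus strand), has the largest excess of T among the sites of this width considered for printing, with 55.3% T and 2.01% A. The third is a site in intron 6 of the synapsin gene SYN3 (chr22:32698125-32698406, minus strand), a gene with many sites, and has slightly more A (33.0%) than T (26.95%). Capitals mark T.
SUGCT: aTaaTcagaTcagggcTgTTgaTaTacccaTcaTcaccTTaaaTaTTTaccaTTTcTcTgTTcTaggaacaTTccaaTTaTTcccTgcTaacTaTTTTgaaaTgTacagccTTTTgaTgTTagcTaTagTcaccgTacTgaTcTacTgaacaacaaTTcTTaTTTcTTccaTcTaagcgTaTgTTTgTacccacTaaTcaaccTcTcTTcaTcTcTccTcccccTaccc
GALNT17: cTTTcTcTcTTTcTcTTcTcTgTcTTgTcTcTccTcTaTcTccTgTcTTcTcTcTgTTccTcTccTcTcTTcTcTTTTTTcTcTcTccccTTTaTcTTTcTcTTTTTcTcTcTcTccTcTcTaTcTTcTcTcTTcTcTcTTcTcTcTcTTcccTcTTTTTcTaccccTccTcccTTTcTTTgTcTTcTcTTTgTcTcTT
SYN3: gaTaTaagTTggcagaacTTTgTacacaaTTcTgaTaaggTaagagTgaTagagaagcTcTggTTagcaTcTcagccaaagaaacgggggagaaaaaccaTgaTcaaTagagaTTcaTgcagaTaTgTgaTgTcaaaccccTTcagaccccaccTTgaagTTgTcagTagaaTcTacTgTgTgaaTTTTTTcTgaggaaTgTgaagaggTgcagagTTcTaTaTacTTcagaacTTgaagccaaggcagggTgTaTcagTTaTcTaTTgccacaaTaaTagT

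The pyrimidine run in GALNT17 stands at the T-rich end of the T and A difference, whereas the SUGCT site is unremarkable to the eye. Repeats form a small part of the members, and 2 further sites show their kinds. A site in intron 18 of CACNA1E, a calcium channel gene (chr1:181728860-181729081, plus strand), matches itself in 100% of compared positions at an offset of 116 bp, and capitals mark 1 unit. A site in intron 3 of the myosin gene MYO9B (chr19:17146163-17146395, plus strand) holds the longest perfect short repeat among the sites of this width that were considered for printing, 50 bp of a 4 bp unit, marked in capitals.
CACNA1E: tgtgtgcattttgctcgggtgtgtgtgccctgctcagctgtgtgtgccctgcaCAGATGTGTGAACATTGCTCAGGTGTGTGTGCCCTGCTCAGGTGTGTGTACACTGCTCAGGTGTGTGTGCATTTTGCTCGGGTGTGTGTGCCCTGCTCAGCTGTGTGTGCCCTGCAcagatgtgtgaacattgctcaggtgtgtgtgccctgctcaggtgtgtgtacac
MYO9B: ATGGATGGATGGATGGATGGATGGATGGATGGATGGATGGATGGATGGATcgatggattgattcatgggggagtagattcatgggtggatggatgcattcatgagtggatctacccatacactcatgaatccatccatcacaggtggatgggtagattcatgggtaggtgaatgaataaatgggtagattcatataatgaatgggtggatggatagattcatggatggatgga

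Later introns of genes over 100 kb held 9.47 sites per Mb, fewer than later introns of shorter genes and fewer than first introns of the same long genes. The member sites fell in 565 Mb of intron sequence, and 2921 sites in 223 Mb of later introns of genes to 100 kb gave 13.1 sites per Mb. The ratio of these densities was 0.724 (95% interval 0.692 to 0.757, exact conditional binomial test, two-sided, adjusted p = 1.16e-42 over the 10 tests made). Counting only genes with a site, the densities were 18.0 and 57.0 per Mb and the ratio was 0.315. This choice drops every gene without a site, and a short gene with a site has a high density by construction. No conclusion is drawn from that ratio. First introns of genes over 100 kb held 1693 sites in 160 Mb, or 10.6 sites per Mb, and the ratio was 0.894 (0.847 to 0.945, exact test, adjusted p = 0.000146). Without genes over 500 kb the densities in later and first introns were 11.97 and 12.96 per Mb, a ratio of 0.924 (exact p = 0.00748). The comparison with first introns was not split by classes of gene length. Intervals and tests over sites cover counting error only, since neighbouring sites of 1 gene are not independent and how the repeats vary is not known. The paper reports that its earliest timepoint gave the most peaks, and that genes copied late in S-phase tended to be longer. Timepoints thus do not enter the list equally, and no peak in it carries a timepoint. Whether the densities here and by gene length below follow from when genes are replicated was not tested.

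The difference from shorter genes turned round with the length of the long genes. Members in genes of 100 to 200 kb had the highest density, with 2498 sites at 14.8 per Mb (14.2 to 15.4). The density was 9.83 per Mb (9.42 to 10.3) in genes of 200 to 500 kb, 4.955 (4.56 to 5.38) in genes of 500 kb to 1 Mb, and 1.93 (1.60 to 2.32) in genes over 1 Mb. When genes over 200 kb were left out, the later introns of long genes held more sites than those of genes to 100 kb, with a ratio of 1.13 (exact p = 9.37e-06), an alternative chosen after seeing the data. Among the shorter genes the density was 9.85 per Mb to 30 kb, 13.1 from 30 to 60 kb and 15.0 from 60 to 100 kb. The density thus rose with gene length up to the class that meets the 100 kb limit and fell beyond 200 kb. On both sides of the limit it was close, with 301 sites at 14.9 per Mb in genes of 90 to 100 kb and 378 sites at 16.3 per Mb in genes of 100 to 110 kb.

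**Figure D1:**
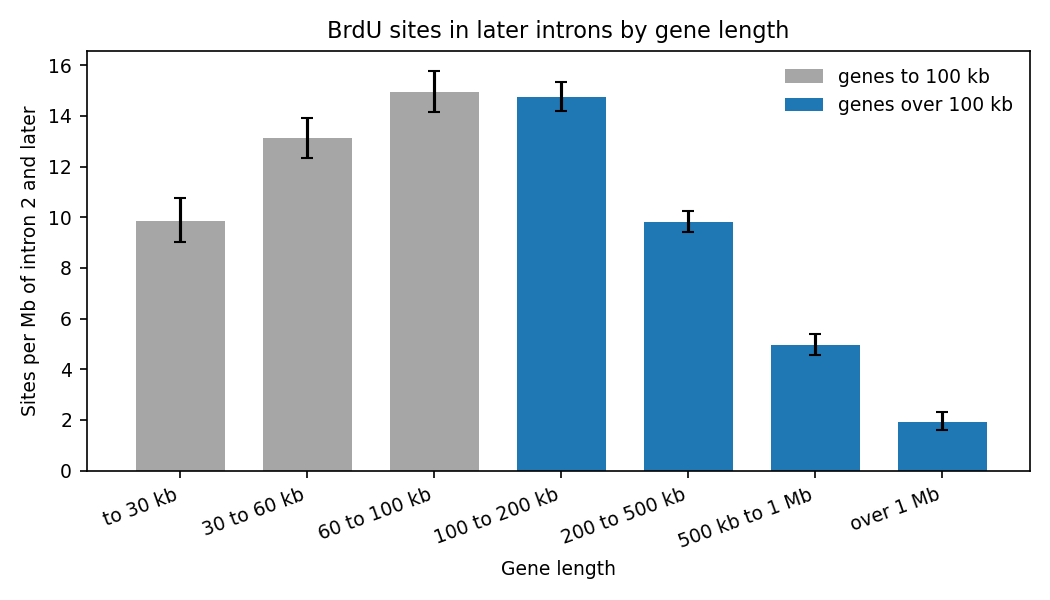
Sites per Mb of intron 2 and later (y axis) for 7 classes of gene length (x axis), grey for genes to 100 kb and blue for genes over 100 kb, with 95% exact Poisson intervals as bars. The density climbs to about 15.0 and 14.8 per Mb in the classes on either side of 100 kb and falls to 1.93 per Mb in genes over 1 Mb.

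More genes had a site as they grew longer, though each Mb of them held fewer. At least 1 site was present in 1425 of 3367 genes over 100 kb (42.3%), namely in 38.8% of genes of 100 to 200 kb, 45.05% of those of 200 to 500 kb, 52.9% of those of 500 kb to 1 Mb and 62.7% (42 of 67) of those over 1 Mb. Sites were gathered in few genes. A single site was found in 584 genes, 2 to 4 sites in 504, 5 to 9 in 217 and 10 or more in 120. These 120 genes held 2010 sites, 37.6% of all members, and the 10 genes with the most held 401 (7.50%). Neighbouring sites of 1 gene stood a median of 7.99 kb apart (interquartile range 1.92 to 23.8 kb, 3923 spacings). Chromosome 22 had the highest density of the autosomes at 16.3 sites per Mb and chromosome 16 the lowest at 5.01. Of the 106 sites on chromosome 22, however, 52 lay in the single gene SYN3.

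The genes with the most sites were C8orf34 with 56, SYN3, which encodes the synaptic vesicle protein synapsin III, with 52, SHROOM3, which encodes an actin-binding regulator of cell shape, with 45, LRRC49, which encodes a subunit of a tubulin polyglutamylase complex, with 44, and PALLD, which encodes the actin scaffold protein palladin, with 40. The annotated gene ENSG00000282278 also held 40. Next came the spliceosome-associated cyclophilin gene CWC27 with 34, FCHSD2, which acts in endocytosis, with 33, the fibrillin-1 gene FBN1 with 29 and the metalloprotease gene ADAMTS6 with 28. This order was not that of gene length. SYN3 (chr22:32507820-33058381, minus strand, 551 kb) held 107 sites per Mb of later intron, FBN1 (chr15:48408313-48645721, minus strand, 237 kb) held 129, and SHROOM3 (chr4:76435229-76783253, plus strand, 348 kb) held 207. By contrast MACROD2, the longest gene without a member at 2058 kb, had 2041 kb of later intron and none. The other longest genes without one were PDE4D (1553 kb), DAB1 (1552 kb), CNTN5 (1338 kb) and LSAMP (1337 kb). They encode a phosphodiesterase, a reelin adaptor and 2 neuronal adhesion proteins. Their later introns came to 239 kb in PDE4D, 291 kb in DAB1, 275 kb in LSAMP and 1027 kb in CNTN5, less than in MACROD2 in each case.

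Within the genes with the most sites, the intron that held most of them was set beside its share of the later-intron sequence of that gene. In SYN3, intron 6 held 37 of 52 sites (71.2%) and 54.3% of the later-intron sequence. In C8orf34, intron 8 held 20 of 56 sites (35.7%) and 18.2% of the sequence. By contrast, intron 2 of SHROOM3 held 27 of 45 sites (60%) and 71.7% of the sequence. In LRRC49 the shares of intron 8 were 22.7% of sites and 17.7% of sequence, and in PALLD those of intron 2 were 42.5% and 38.3%. In ENSG00000282278 (chr4:53377839-54295272, plus strand), intron 12 held 38 of 40 sites and 93.3% of the sequence. These shares are given with no test. Each intron was picked for holding the most sites, a choice that favours a share of sites above its share of sequence. The record ENSG00000282278 spans other coding genes, and 6 of its sites lay inside FIP1L1, 5 inside CHIC2 and 8 inside LNX1, so that these sites belong to shorter genes as well. In SYN3 a single site lay inside TIMP3, a metalloprotease inhibitor gene on the opposite strand. Sites reached from 126 to 536 kb downstream of the TSS in SYN3, from 43.5 to 193 kb in LRRC49 and from 21.1 to 425 kb in PALLD. Both directions of the T and A difference occurred in each, with 18 sites of more T and 33 of more A in SYN3, 24 and 20 in LRRC49, and 24 and 16 in PALLD.

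**Figure D2:**
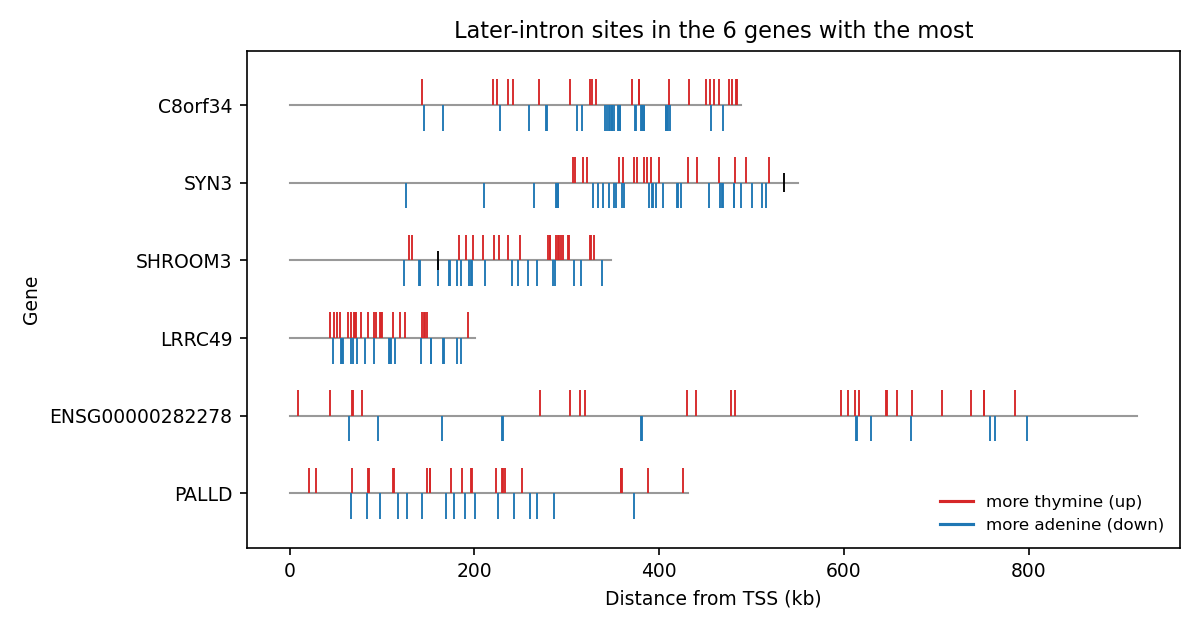
Position of each member site (x axis, distance from the TSS in kb) in the 6 genes with the most sites (y axis), with the grey line as the gene's length. Red marks point up for more thymine and blue marks point down for more adenine on the gene strand, and short black marks are sites with equal shares. Sites of both kinds occur side by side in all 6, and the first member of SYN3 lies 126 kb from the TSS.

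Per Mb of later intron, and among genes with at least 5 sites, the densest were NBPF14 (335 sites per Mb), the deubiquitinase gene USP47 (320), the centrosome gene CEP63 (296), the annotated gene ENSG00000273269 (292) and LRRC49 (286). NBPF14 belongs to a family of near-identical copies whose reads cannot be placed with certainty, and its 18 sites, in 18 different introns, all had more T than A and at least 1 TGTGTG or GTGTGT, so they may not be separate. ENSG00000273269 overlaps STPG4, in which 19 of its 27 sites lay, and CALM2, in which 4 lay. CEP63 had 17 of 19 sites with more T on the gene strand, whereas USP47 had 9 of 23.

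Along the gene, member sites lay at a median of 0.587 of the distance from TSS to gene end, close to the 0.601 of the later introns themselves. The part of the gene before its midpoint held 39.85% of sites (38.5 to 41.2) and 38.0% of the later-intron sequence (exact binomial test, two-sided, adjusted p = 0.0077). This difference was lost when each site was compared with the introns of its own gene (38.8% of sequence, exact p = 0.133) and when 1 site per gene was taken (36.4% against 36.1%, p = 0.847). Length classes differed in this measure. In genes of 200 to 500 kb the part before the midpoint held 43.8% of sites and 38.2% of sequence, in genes of 100 to 200 kb both shares were 38.3%, and in genes over 1 Mb it held 26.3% of sites and 34.6% of sequence. In the first decile of gene length the density was 10.99 sites per Mb (9.47 to 12.7) and in the last it was 9.10 (8.36 to 9.89). In genes of 100 to 200 kb it was 12.2 (9.21 to 15.8) in the first decile and 15.7 (13.8 to 17.8) in the last. In genes of 200 to 500 kb it was 13.7 (11.05 to 16.7) and 8.77 (7.62 to 10.04), and in genes over 500 kb 6.59 (4.62 to 9.125) and 4.70 (3.83 to 5.70). Only in genes of 200 to 500 kb did the intervals of these deciles separate.

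Sites were closer to exons than later introns at large, but not closer than the later introns of their own genes. An exon of the same transcript lay within 5 kb of 48.8% of sites (47.5 to 50.2) and of 41.4% of the sequence (exact binomial test, adjusted p = 1.46e-27). Set against the introns of the same genes, which had 52.7% of their sequence this close, the direction reversed (exact p = 1.79e-08), and with 1 site per gene the shares were 51.2% and 55.9% (p = 0.000386). Within genes of 100 to 200 kb the shares were 64.0% and 64.3%, and in genes of 200 to 500 kb 40.1% and 41.0%. The median distance to an exon was 5.26 kb for sites and 7.56 kb for the sequence. Sites were nearer the upstream exon in 51.05% of cases, against 50.0% of sequence (exact binomial test, adjusted p = 0.129), and the intervals do not separate them. Intron 2 held 1121 sites, 20.96% of the members and 19.7% of the sequence, and the median member stood in intron 6.

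The base composition of the members differed from that of their introns in its narrow range of AT content. Mean AT content was 60.7% ± 5.23 (SD over 5348 sites) and that of 272 bp windows along the same introns was 59.9% ± 8.37 (SD over windows). Above the window median of 60.7% AT lay 61.4% of sites (60.1 to 62.7) and 49.5% of windows (exact binomial test, adjusted p = 4.44e-67). Yet AT contents over 70% were found in only 0.299% of sites and in 10.1% of windows, and those under 50% in 4.36% and 12.6%. Both ends of the range were thus thinner in sites than in the introns.

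The T-rich strand was set against the gene strand. More T than A on the gene strand was found in 63.5% of the 5318 sites in which the counts differed (62.2 to 64.8), and in 60.8% of windows (exact binomial test, adjusted p = 0.000146). Of the 22 autosomes, 20 had a larger share in sites than in windows. With the introns of the same genes as reference the share was 61.7% (exact p = 0.00768). Among sites and windows in which T and A differed by at least 5 percentage points, the shares were 65.7% and 64.6%, and the difference no longer passed the threshold (exact p = 0.111). Sites in first introns of the same length class had more T in 68.1% of cases, a larger share than in members (Fisher's exact test, p = 0.000549, added after seeing the data and not adjusted). Sites in later introns of shorter genes had more T in 62.4%. The share in windows of first introns, or of the introns of shorter genes, was not measured. Windows of the members' own introns had more T near the TSS, as given below. Whether sites in first introns differ from the sequence around them in this measure was therefore not tested.

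The share of sites with more T on the gene strand was highest near the TSS. In the first decile of gene length it was 76.2% (69.4 to 82.2), in the second 70.6%, and in the last 3 deciles it was 57.3%, 58.3% and 59.4%. The windows followed the same course, from 67.5% in the first decile to 55.3% in the last. Sites stood above their windows by more than their counting interval in the first decile and in decile 7 (65.2%, 61.4 to 68.8, against 60.1%), and in no other. In decile 8 their share lay below that of the windows (57.3% against 59.1%). By gene length, the share was 65.0% in genes of 100 to 200 kb (windows 62.8%), 62.9% from 200 to 500 kb (61.2%), 60.8% from 500 kb to 1 Mb (59.3%) and 55.1% over 1 Mb (57.1%), where 118 sites left an interval of 45.7 to 64.3%.

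**Figure D3:**
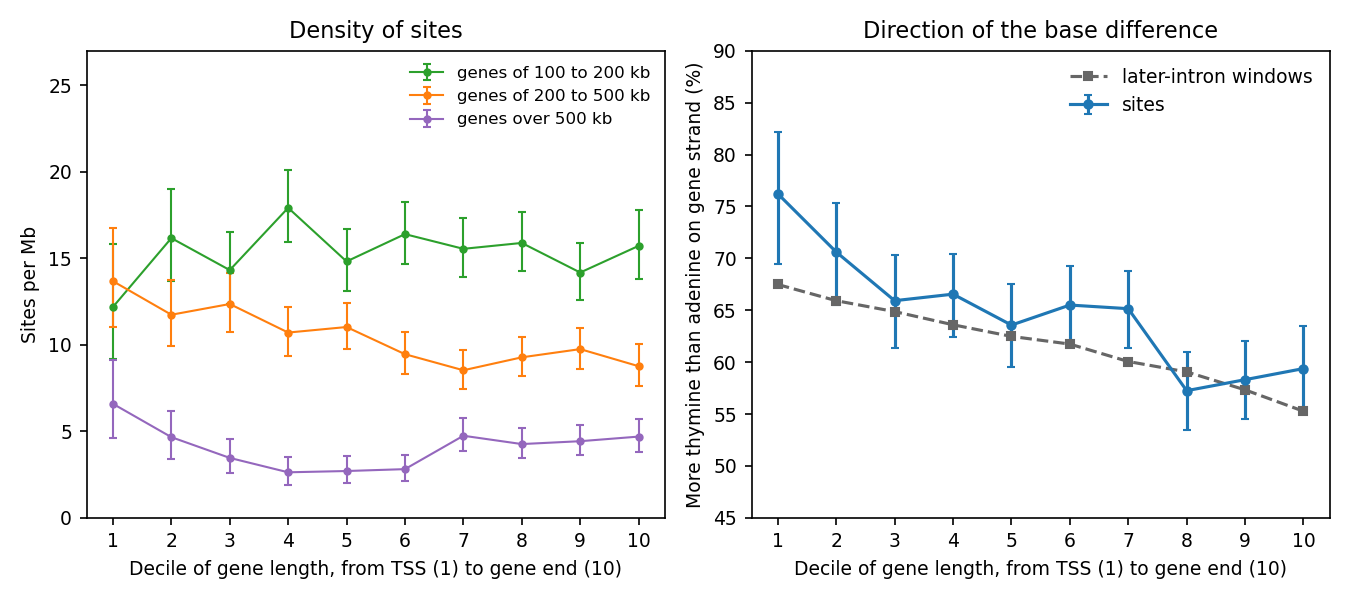
Left, sites per Mb (y axis) in each decile of gene length from TSS to gene end (x axis) for 3 classes of gene length. Right, share of sites (blue) and of later-intron windows (grey, dashed) with more thymine than adenine on the gene strand, and bars are 95% exact intervals. Density in the shortest class lies between 12.2 and 17.9 per Mb, and the thymine share falls from 76.2% in the first decile to between 57.3% and 59.4% in the last 3.

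The size of the difference between T and A, in either direction, set the members apart from their introns far more than its direction did. T and A differed by 10 percentage points or more in 71.1% of sites (69.9 to 72.3) and in 32.4% of windows, with medians of 14.6 and 6.99 percentage points. This measure was added after seeing the data and is given with no test. The share was 70.4% when all sites were cut to 272 bp around their midpoint, and 71.2% without arrays and short repeats. It exceeded that of the windows on 22 of 22 autosomes, where it ranged from 62.3% to 78.9% against 29.3% to 35.0%. Across length classes it lay between 69.9% and 74.1%, whereas density varied widely. Sites in later introns of genes to 100 kb (64.8%) and in first introns of long genes (64.3%) had lower shares than the members. Both were still far above the 32.4% of windows in the members' introns, so the trait is not particular to the members. Sites with 2 or more overlapping peaks had a higher share (78.8%) than sites with 1 (68.9%).

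When T and A differed this much, the T lay on the gene strand in 68.7% of sites (67.2 to 70.2) and in 67.9% of windows. Strongly uneven sites therefore followed the gene strand about as often as the introns around them. T exceeded A by 20 points or more in 1024 sites, and A exceeded T by as much in 378. Of the windows, 4.85% and 1.85% did so, and of the sites 19.1% and 7.07%. The distribution of sites had a peak on each side of 0, near 18 and near -14 percentage points, where that of the windows had a single one near 2.

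**Figure D4:**
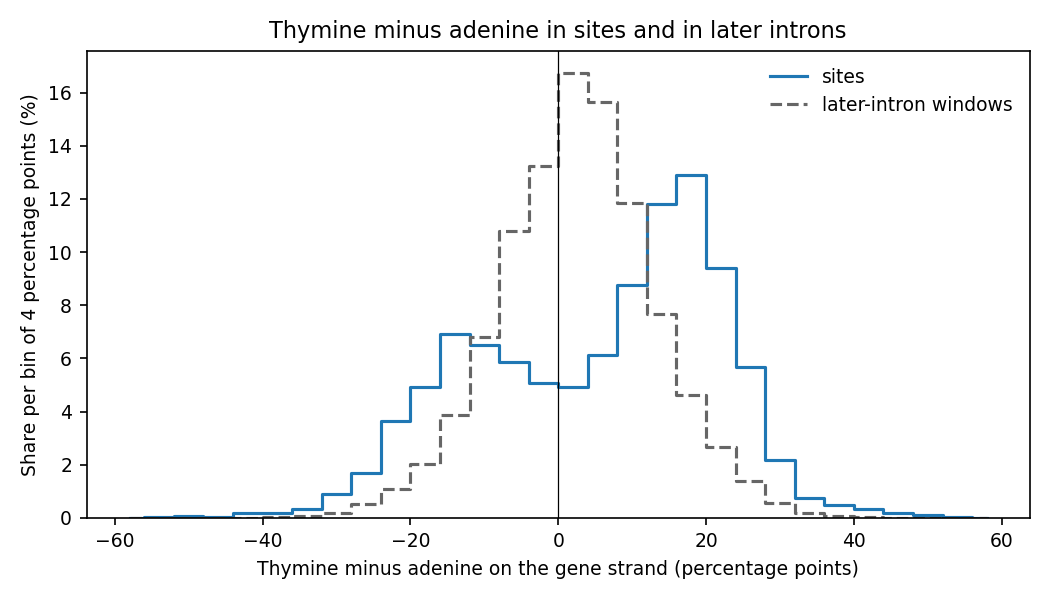
Distribution of thymine minus adenine on the gene strand (x axis, percentage points) in bins of 4, as a share (y axis) of the 5348 sites (blue) and of the 272 bp windows along the same introns (grey, dashed). Windows have 1 peak near 2, and sites have 2, near 18 and near -14, with a dip at 0.

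The unevenness reached beyond the sites. In bins of 100 bp on the gene strand, sites with more T had 38.9% T and 22.0% A just downstream of the midpoint, which the choice of these sites sets. Outside the sites, which the choice did not use, T was still 33.5% and A 26.4% in the bin centred 950 bp upstream, and 33.6% and 26.3% as far downstream. Sites with more A had 31.1% A and 28.3% T at 950 bp upstream. The later introns as a whole held 31.2% T and 28.7% A. Flanks of windows chosen for more T or for more A were not measured. For sites with more T the T share was higher at 550 bp downstream (35.2%) than at 550 bp upstream (34.7%), and for sites with more A the A share was higher upstream (33.0%) than downstream (32.3%). On the T-richer strand of each, the excess of T thus extended a little further to the 3′ side in both kinds.

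**Figure D5:**
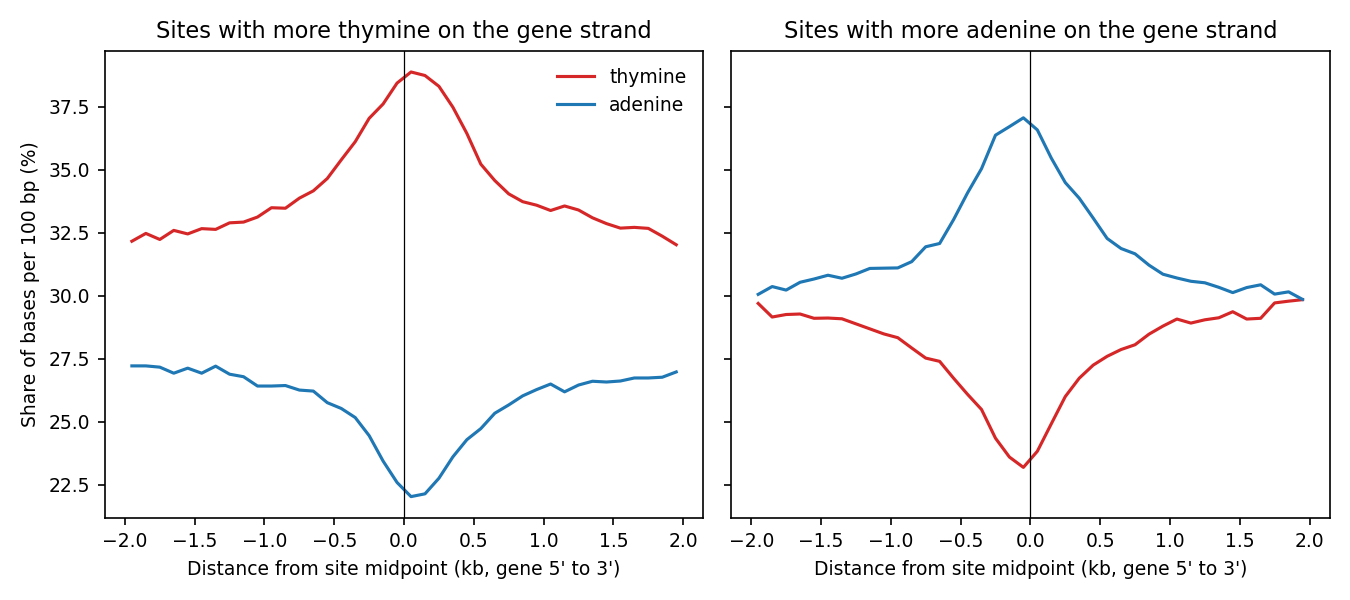
Share of thymine (red) and adenine (blue) on the gene strand (y axis) in 100 bp bins by distance from the site midpoint (x axis, kb, gene 5′ to 3′), for sites with more thymine (left) and more adenine (right). Thymine reaches 38.9% on the left and adenine 37.1% on the right, and both are still raised 950 bp away.

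Neighbouring sites of 1 gene often had the same richer base on the gene strand when they were close. Of pairs under 1 kb apart, 599 of 702 (85.3%, 82.5 to 87.9) matched, and of pairs 1 to 5 kb apart, 582 of 853 (68.2%). At 5 to 20 kb the share was 54.5%, and beyond 20 kb it was 54.6%. Pairs of intron windows at gaps of 0.272, 2.72, 11.97 and 40.5 kb matched in 60.5%, 55.7%, 53.5% and 53.0%. Windows and sites were not matched for the size of the T and A difference, with medians of 6.99 and 14.6 percentage points. Their shares of matching pairs are thus not of like kinds. Close sites may be part of 1 broader region, and sites of 1 gene are not replicates of each other.

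Alternating TG was the most frequent hexamer sequence of the members on the gene strand. TGTGTG made up 3.46 and GTGTGT 3.34 per 1000 hexamers, against 0.879 and 0.744 in the later introns. The same repeat read from the other strand, CACACA and ACACAC, made up 2.05 and 1.82 against 0.639 and 0.532. At least 1 of the TG hexamers stood in 1122 sites (20.98%) and in 14.5% of windows, and at least 1 of the CA hexamers in 688 sites (12.9%) and 10.7% of windows. These shares are not at equal width. Sites were searched over their full width (median 278 bp, up to 2548 bp) and windows over 272 bp, so wider sites had more room for a hexamer. The pair of sequences in each set overlap each other when they form a run. CATCCA was 4.18 times as frequent in sites as in introns, and ATCCAT was 4.05 times as frequent. By contrast, TTTTTT, the most frequent hexamer of the introns at 4.07 per 1000, made up 1.86 in sites, and AAAAAA 0.930 against 2.97. When sites and windows with any TG or CA hexamer were left out, more T than A was still found in 63.2% of sites and 60.5% of windows (exact p = 0.000926).

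Tandem arrays, sites that match themselves at 70% or more of positions when shifted by up to 120 bp, were less frequent in members than in later introns of shorter genes. They made up 271 of 5348 sites (5.07%, 4.50 to 5.69) against 6.40% (Fisher's exact test, two-sided, adjusted p = 0.017), and 0.288% of windows. The units had a median length of 51 bp (interquartile range 31.5 to 85), and 259 exceeded 6 bp. Counting 1 site per gene, the shares were 8.21% and 8.36% (exact p = 0.894), and at a match of 80% or more they were 3.01% and 3.22% (p = 0.595). Arrays took up 4.48% of the sites in genes of 100 to 200 kb, 4.203% from 200 to 500 kb, 7.76% from 500 kb to 1 Mb and 20.3% (24 of 118) over 1 Mb. Per Mb of later intron there were fewer of them in longer genes, with 0.662, 0.413, 0.385 and 0.393 arrays in these classes. PTPRN2, which encodes a tyrosine phosphatase family protein of secretory vesicles, alone held 9 arrays among its 18 sites. Perfect short repeats of at least 20 bp were found in 184 sites (3.44%) and in 4.42% of the sites of shorter genes (Fisher's exact test, adjusted p = 0.0373), with 3.97% of windows. This difference was lost at 12 bp (29.4% against 29.5%) and at 30 bp (1.35% against 1.44%). Units of 2 bp (70 sites), 4 bp (55) and 6 bp (37) were the most common.

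Peaks were stacked on each other in 1166 sites. A depth of 2 or more, where the same base was covered by at least 2 peaks, was found in 21.8% of member sites and in 23.2% of the sites of shorter genes (Fisher's exact test, adjusted p = 0.159), with intervals that overlap. Stacked sites were wider, in part by construction, since a site spans all its merged peaks, and they were more often repeats. The timepoint of each stacked peak is not given. Sites of depth 1 had a median width of 251 bp and were arrays in 3.49% of cases, those of depth 3 were 575 bp wide with 17.6% arrays, and the 49 sites of depth 4 were 795 bp wide, 24 of them arrays. More T than A was found in 63.6% of the sites of depth 1 and in 60.9% of the 23 of depth 5. A site of 8 peaks lay in each of CAMTA1, a calmodulin-binding transcription activator gene, the trafficking gene TRAPPC9 and TSNARE1, and one of 7 in each of ARHGAP20, a GTPase-activating protein gene, and GNAL, a G protein subunit gene. The CAMTA1 site, 784 kb from the TSS, was 1150 bp wide and held 41.4% C and 1.65% G. The ARHGAP20 site matched itself at 85.7% with a 17 bp unit and the GNAL site at 92.3% with a 48 bp unit. The widest site, of 2548 bp in intron 8 of the RNA methyltransferase gene NSUN6, held 41.5% T and 37.6% C.

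Gene groups were described by how many of their genes over 100 kb held a member, with 42.3% of all long genes and 9.47 sites per Mb for comparison. Among genes of the actin cytoskeleton and adhesion, which shape and anchor the fibroblast, 28 of 46 had a site, and their later introns held 20.1 sites per Mb. Extracellular matrix genes had a site in 27 of 43 cases and 15.8 sites per Mb. In these groups PALLD (40 sites), the GTPase-activating protein gene ARHGAP26 (23) and the focal adhesion kinase gene PTK2 (20), and FBN1 (29), ADAMTS6 (28) and the netrin gene NTN4 (15) led, and without PALLD and FBN1 the densities were 17.1 and 13.3. Not all such genes had sites. ELMO1 (596 kb), DIAPH3 (498 kb), DOCK4 (480 kb), ADAMTSL1 (1004 kb), SPOCK1 (623 kb) and ADAMTSL3 (386 kb) had none. The groups were longer in the median (307 and 232 kb) than all long genes (176 kb), and the share of genes with a site rises with length. These groups were chosen with earlier results known.

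Synaptic adhesion and channel genes, with a median length of 825 kb, had a site in 31 of 54 cases (57.4%) and 3.42 sites per Mb. Among all genes of 500 kb to 1 Mb, 52.9% had a site and the density was 4.955 per Mb. SYN3, listed here although it encodes a synaptic vesicle protein, held 52 of the group's 119 sites. Without SYN3 the group's density was 1.95 per Mb. Outside SYN3, DLGAP1 (6) and CACNA2D3 (5) had the most, and CNTN5 and KCNIP4 (1220 kb) had none. Common fragile site genes were the longest group at a median of 1174 kb. They had a site in 23 of 31 cases (74.2%) and 2.32 sites per Mb. All genes over 1 Mb had a site in 62.7% of cases and a close density of 1.93 per Mb. Without PTPRN2, which held 18 of the 64 sites of the fragile site genes, their density was 1.73. Next was the neuronal scaffold gene NBEA with 5. Receptor and kinase signalling genes had a site in 22 of 45 cases and 11.3 sites per Mb, with GSK3B (17), PRKCH (12) and TEAD1 (12) first and CDK14, EPHB1 and BMPR1B the longest without. DNA replication and repair genes had a site in 14 of 24 cases and 14.2 sites per Mb. The primase subunit gene PRIM2 held 25 of their 58 sites, RAD51B, a recombination gene, 13 and the translesion polymerase gene REV3L 4, while FANCC, MGMT and MSH3 had none. Without PRIM2 the group's density was 8.80 sites per Mb. PRIM2 has near-identical copies elsewhere in the genome, so its count is uncertain.

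The study names 14 genes at a peak or primer, of which 6 were over 100 kb with later introns, and these 6 all held members. They were picked with these peaks in view, so that their having sites is no independent result. RASA3 had 6 sites, 3 of them arrays, and ARHGAP20, ASAP2, CMIP and DIP2C had 3 each, with all 3 of DIP2C arrays. EXD3 had 2 sites made of 11 peaks, 93.1 and 95.1 kb from its TSS, in the same intron.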

How the data were processed

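The authors deposited a list of peak positions in bp, with no header, score, timepoint or repeat. According to the paper's methods, BrdU-Seq reads were aligned to hg38 with Bowtie2, and MACS2 2.1.0 called the peaks of every timepoint over Input DNA at a p threshold of 1e-05. The methods state that repeats were checked for correlation and then analyzed jointly, but how this was done for the peak calls is not given in the sources used here. The precision of a value comes from the number of sites alone.

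Start positions in the list count from 0, and those printed count from 1. Genes and canonical transcripts came from GENCODE version 44, and no peak reached beyond a chromosome end. Overlapping or touching peaks were merged into sites. Bases of the later introns outside canonical coding exons were assigned to the longest gene and tiled with windows of 272 bp, the median width of the member peaks. Of 3507 autosomal coding genes over 100 kb, 3367 had such bases. Densities were compared with exact conditional binomial tests, shares of sites with the share of windows by exact binomial tests, and shares between classes of introns by Fisher's exact test, all two-sided, with Benjamini-Hochberg adjustment over 10 tests and exact Clopper-Pearson or Poisson 95% intervals. Sites with equal T and A (30) were left out of the comparison of T with A.

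The members, gene lists, measures and tests were chosen with earlier results of these data known. Genes were named by rule: the 10 with the most sites, the 5 with the most sites per Mb among those with at least 5, the 5 with the most peaks in 1 site, the 5 longest without a site, the 3 with most sites and the 3 longest without one of each list, and genes that the study names. Named sites were the widest and those with the most peaks. Among sites to 300 bp wide outside chromosome 8, those at the extremes of T minus A, self-match and repeat length and nearest to the medians were also named. Some genes and sites that these rules name are not reported here. Alternatives were all peaks in place of sites, leaving out arrays or genes over 500 kb, 1 site per gene (the widest), and other limits.

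The searches for arrays and repeats were tested on simulated data, where 300 of 300 planted arrays, 300 of 300 planted repeats and 0 of 300 random sequences were called. The tools were scipy 1.17.1 for the tests, pandas 2.3.3 and numpy 2.4.6 for tables, numba 0.67.0 for searches in the genome and matplotlib 3.10.9 for plots, under Python 3.11.15.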

Additional observations from a re-analysis of the deposited data

How the results depend on the processing

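No paired analysis was possible because no peak carries a repeat number or timepoint. Of 66 alternatives over 12 results, 52 kept the direction and the side of the threshold of 0.05, or stayed within 1.5 times a count. Against the introns of the same genes, the share of sites within 5 kb of an exon (48.8%) reversed, as it did with 1 site per gene (51.2%), and the share before the gene midpoint (39.85%) no longer passed. With 1 site per gene, the share before the gene midpoint (36.4%), the share of arrays (8.21%) and that of short repeats (4.77%) lost the threshold, and the share of sites of depth 2 or more reversed to 35.7% against 32.0% (exact p = 0.0351), where the widest site of each gene was taken. Without genes over 200 kb the density reversed to 14.8 sites per Mb. In introns over 20 kb, 49.9% of sites were nearer the upstream exon, a reversed direction. T and A differing by 5 points (65.7%), arrays at 80% (3.01%) and short repeats of 12 bp (29.4%) or 30 bp (1.35%) no longer passed. Genes with at least 2 sites numbered 841. The causes were not tested. The any-overlap alternative gives the same 6939 peaks by construction.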
